A study of Homo sapiens with 6 samples.

Results

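The E2F and retinoblastoma family was followed in A549, an established line of human lung adenocarcinoma cells. SNHG17, a long noncoding RNA, was targeted by siRNA in 3 libraries (si-SNHG17), and 3 libraries received control siRNA (si-NC). The labels give all 6 libraries as A549 and name no other treatment, no time after transfection and no dose. The members were the 10 rows of the count table named E2F1, E2F2, E2F3, E2F4, E2F5, E2F7, E2F8, RB1, RBL1 and RBL2, out of 54261 rows in all. Each name was found once, and 8 of the 10 had enough reads to be tested; E2F3 and RB1 did not.

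E2F proteins bind DNA next to genes that cells need to enter S phase. E2F1, E2F2 and E2F3 are known as activators, E2F4 and E2F5 as repressors that act with pocket proteins, and E2F7 and E2F8 as atypical repressors that need neither a DP partner nor a pocket protein. The pocket proteins RB1, RBL1 (p107) and RBL2 (p130) hold E2F proteins in check until cyclin-dependent kinases phosphorylate them; RB1 mostly holds the activators, and RBL1 and RBL2 mostly E2F4 and E2F5. Several genes of the family are themselves known E2F targets, so the network feeds back on itself.

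The libraries held 8643076 to 12477214 counts. SNHG17, the targeted RNA, averaged 9.16 ± 1.86 CPM in si-SNHG17 and 42.1 ± 8.16 CPM in si-NC (counts per 1000000 after library scaling; SD over 3 libraries each), which was 21.8% of the control level. Within si-NC, replicate 3 lay farther from replicates 1 and 2 (chi-square of 8.85 and 8.40 for each degree of freedom) than these did from each other (2.25). Of 5 epithelial markers, 3 fell (the keratins KRT8, -0.75, and KRT18, -0.93, and the cadherin CDH1, -0.53, as log2 fold changes) and 1 rose (the keratin KRT19, 0.43); EPCAM, at 0.95 CPM in si-SNHG17 and 1.53 CPM in si-NC, did not pass. Of 6 markers of A549-type lung adenocarcinoma, 4 could be tested and 3 of these fell: ALDH1A1 (-1.47), AKR1B10 (-1.35) and MUC5AC (-2.52). AKR1C1 did not pass (0.12), SFTPB had no reads, and NKX2-1 was too low to test. At an adjusted p under 0.05 by edgeR, 80.0% of the 5 epithelial and 75.0% of the 4 A549-type markers tested were called. Of all 15614 genes tested, 39.1% were called, 19.6% as lower in si-SNHG17. The part of these marker changes in the results below was not tested. PTPRC, CD3E and COL1A2, markers of immune and stromal cells, had no reads in any library; COL1A1 did, with 25.3 CPM in si-SNHG17 and 24.3 CPM in si-NC. Nothing in the labels says that the libraries of a group came from separate cultures, so the p-values below reflect library-to-library spread only, and that may be technical.

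Promoter sequence was examined first, because genes of the family are known to be driven through E2F sites of their own. Windows from 250 bases before to 50 bases after the RefSeq transcription start (GRCh38.p14) were used for 7 of the 10 members, 9 windows in all, since E2F3 and RBL2 each had 2 starts. Each window was searched on both strands for the 4 words TTTCCCGC, TTTCGCGC, TTTGCCGC and TTTGGCGC, which are forms of the E2F consensus, and for the words TTTGAA and TTCGAA of the cell cycle genes homology region (CHR), which the DREAM complex of RBL2, E2F4 and MuvB is known to bind. An E2F word was found in the windows of E2F1, E2F2, RBL1 and the upstream start of E2F3. Such a word was in 3.31% of all 35116 windows in the RefSeq table and in 4.88% of those of genes tested. E2F1 and RBL1 held 2 words each, as did 0.145% of all windows. The windows of E2F4, E2F7 and RBL2 held none of these words, which says only that these letters are not in these windows. A CHR word was found in the upstream windows of E2F3 and RBL2, against 16.4% of all windows and 11.6% of those of genes tested. E2F5 and E2F8 were not searched, and the RB1 entry was not used because it starts over 2000 bases from the GENCODE gene start. Some starts that were used also lay inside the GENCODE gene, those of RBL2 by 494 and 1642 bases and the downstream start of E2F3 by 1708. Neither RBL2 window reached the GENCODE gene start, so sequence around that start was not searched for RBL2. The starts of E2F1, E2F2 and RBL1 lay at 19, -13 and -2 bases from theirs.

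The windows of E2F1, E2F2 and RBL1 are shown because they carry the words. The windows of E2F4 and E2F7, which hold no E2F word and start at -14 and 11 bases from the GENCODE gene start, are not printed. The upstream window of RBL2, with its start 494 bases inside the GENCODE gene, is shown as an example without an E2F word. Each window runs 5′ to 3′ in the direction of transcription, with the E2F words in capitals. The first transcribed base follows the first 250 of the 300 bases printed. The E2F1 window lies at chr20:33686336-33686635 (minus strand), that of E2F2 at chr1:23531184-23531483 (minus strand), that of RBL1 at chr20:37095948-37096247 (minus strand) and that of RBL2 at chr16:53434221-53434520 (plus strand).
E2F1: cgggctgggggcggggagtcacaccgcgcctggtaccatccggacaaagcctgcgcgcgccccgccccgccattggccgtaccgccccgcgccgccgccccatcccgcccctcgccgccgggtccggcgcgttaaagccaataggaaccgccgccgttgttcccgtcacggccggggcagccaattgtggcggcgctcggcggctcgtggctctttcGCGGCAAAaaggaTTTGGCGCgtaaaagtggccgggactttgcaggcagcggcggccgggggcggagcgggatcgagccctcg
E2F2: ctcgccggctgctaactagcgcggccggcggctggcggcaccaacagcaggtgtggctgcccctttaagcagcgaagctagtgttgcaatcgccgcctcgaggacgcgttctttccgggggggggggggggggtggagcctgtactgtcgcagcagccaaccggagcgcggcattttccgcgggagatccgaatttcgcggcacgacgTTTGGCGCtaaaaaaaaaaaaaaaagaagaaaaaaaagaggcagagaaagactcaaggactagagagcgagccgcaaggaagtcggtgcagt
RBL1: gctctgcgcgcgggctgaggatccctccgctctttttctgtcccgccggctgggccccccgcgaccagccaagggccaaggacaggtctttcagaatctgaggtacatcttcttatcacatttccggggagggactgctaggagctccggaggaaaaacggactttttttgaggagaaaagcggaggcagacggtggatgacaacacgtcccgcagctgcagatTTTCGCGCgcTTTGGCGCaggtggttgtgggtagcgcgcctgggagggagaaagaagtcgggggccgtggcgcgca
RBL2: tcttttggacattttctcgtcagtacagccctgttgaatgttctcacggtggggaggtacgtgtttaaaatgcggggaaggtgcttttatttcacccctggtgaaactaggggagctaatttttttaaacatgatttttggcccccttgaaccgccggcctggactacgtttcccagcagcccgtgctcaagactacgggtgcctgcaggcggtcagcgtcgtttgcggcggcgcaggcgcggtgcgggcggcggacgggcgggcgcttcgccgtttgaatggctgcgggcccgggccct

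In E2F1 the words TTTGCCGC (minus strand) and TTTGGCGC (plus strand) lay from -33 to -26 and from -20 to -13, counted from the first transcribed base as 1. In RBL1 the words TTTCGCGC and TTTGGCGC lay on the plus strand from -26 to -19 and from -16 to -9. The single word of E2F2, TTTGGCGC, ran from -42 to -35 on the plus strand. The E2F3 word, TTTCCCGC on the minus strand, ran from -53 to -46. All 6 words lay within 53 bases upstream of the start, and none overlapped another. A match is a description of the letters and was not tested as a binding site.

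**Figure D1:**
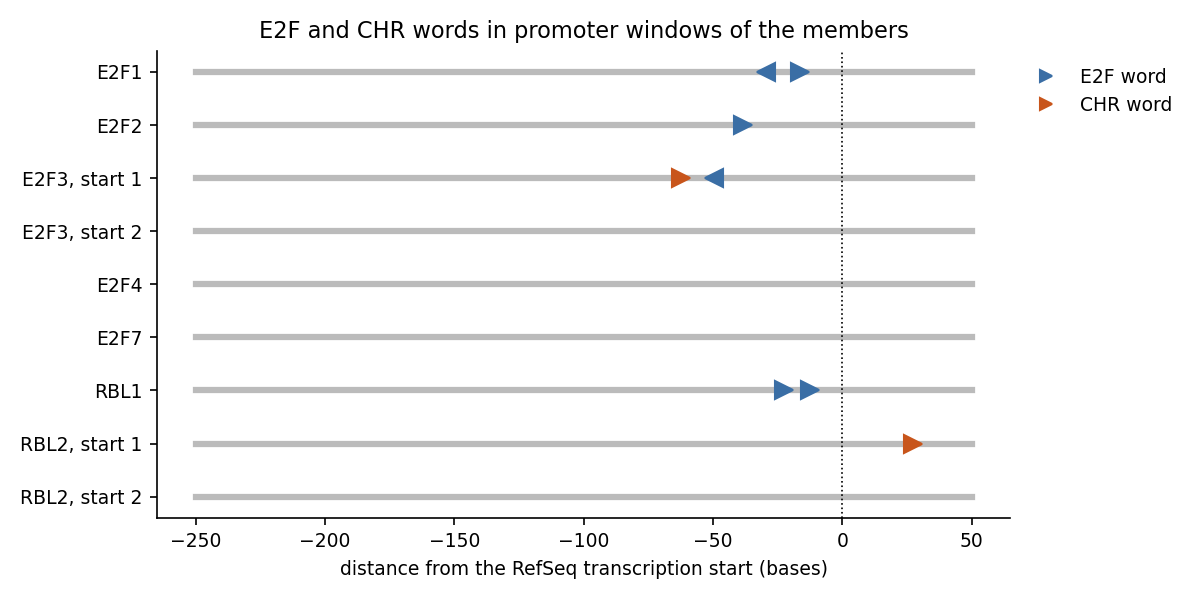
Position of E2F words (blue) and CHR words (orange) in the 9 promoter windows of 7 members, in bases from the RefSeq transcription start; arrowheads point along the strand of the word. The E2F words sit between -53 and -9 in E2F1, E2F2, E2F3 (start 1) and RBL1, and the windows of E2F4, E2F7 and RBL2 hold none.

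Counts were then compared between si-SNHG17 and si-NC over all 15614 genes with enough reads. Of the 8 members tested, 4 fell (E2F1, E2F2, E2F8 and RBL1), 2 rose (E2F5 and RBL2) and 2 did not pass (E2F4 and E2F7), at an adjusted p of 0.05 by edgeR's quasi-likelihood test. Of all genes tested, 39.1% were called, 19.6% as higher and 19.6% as lower in si-SNHG17. The groups did not overlap for 6 of the 8 members, the same 6 that were called, against 49.4% of all genes. The median log2 fold change of all genes tested was 0.01. Members are named with their known role in what follows, starting with the activators.

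Among the activators, E2F1 showed the largest change of the family. E2F1, a driver of S phase entry that can also turn on apoptosis genes, had 13.2, 15.4 and 15.2 CPM in the si-SNHG17 libraries, in the order of replicates 1 to 3 used throughout, against 47.5, 44.5 and 45.0 CPM in si-NC. Every si-SNHG17 library lay below every si-NC library, and the libraries within a group lay close together. E2F1 stood at 32.0% of the control level, with a log2 fold change of -1.64 (standard error 0.11, adjusted p = 9.51e-08 by edgeR). The gene spans chr20:33675683-33686404 on the minus strand (GENCODE 29, GRCh38, as for all gene positions here). The values rest on 453 reads in si-SNHG17 and 1349 in si-NC.

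E2F2, a second activator known from proliferating blood cells, had 8.24, 6.55 and 7.64 CPM in si-SNHG17, against 16.7, 15.9 and 12.5 CPM in si-NC. Again no si-SNHG17 library reached the lowest si-NC library. E2F2 fell by 1.01 on the log2 scale (standard error 0.168, adjusted p = 0.000299 by edgeR), to 49.7% of the control level. It spans chr1:23506430-23531220 on the minus strand.

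E2F3, the third activator, was close to the limit of detection in both groups. It had 6, 9 and 9 reads in the si-SNHG17 libraries and 7, 6 and 0 in the si-NC libraries. The library with no read, si-NC replicate 3, allows up to 3 reads, or 0.281 CPM, an allowance for counting error only. The groups overlapped, and without the filter on low counts edgeR gave a log2 fold change of 0.81 with a 95% interval from -0.43 to 2.05 (adjusted p = 0.439), so no difference was detectable at this depth. The processed pseudogenes E2F3P1 and E2F3P2 had 21 and 32 reads in si-SNHG17 and 12 and 21 in si-NC, as many as E2F3 itself, and whether reads shared with such copies were kept or dropped is not given in the sources used here. The E2F3 values are uncertain for that reason as well.

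**Figure D2:**
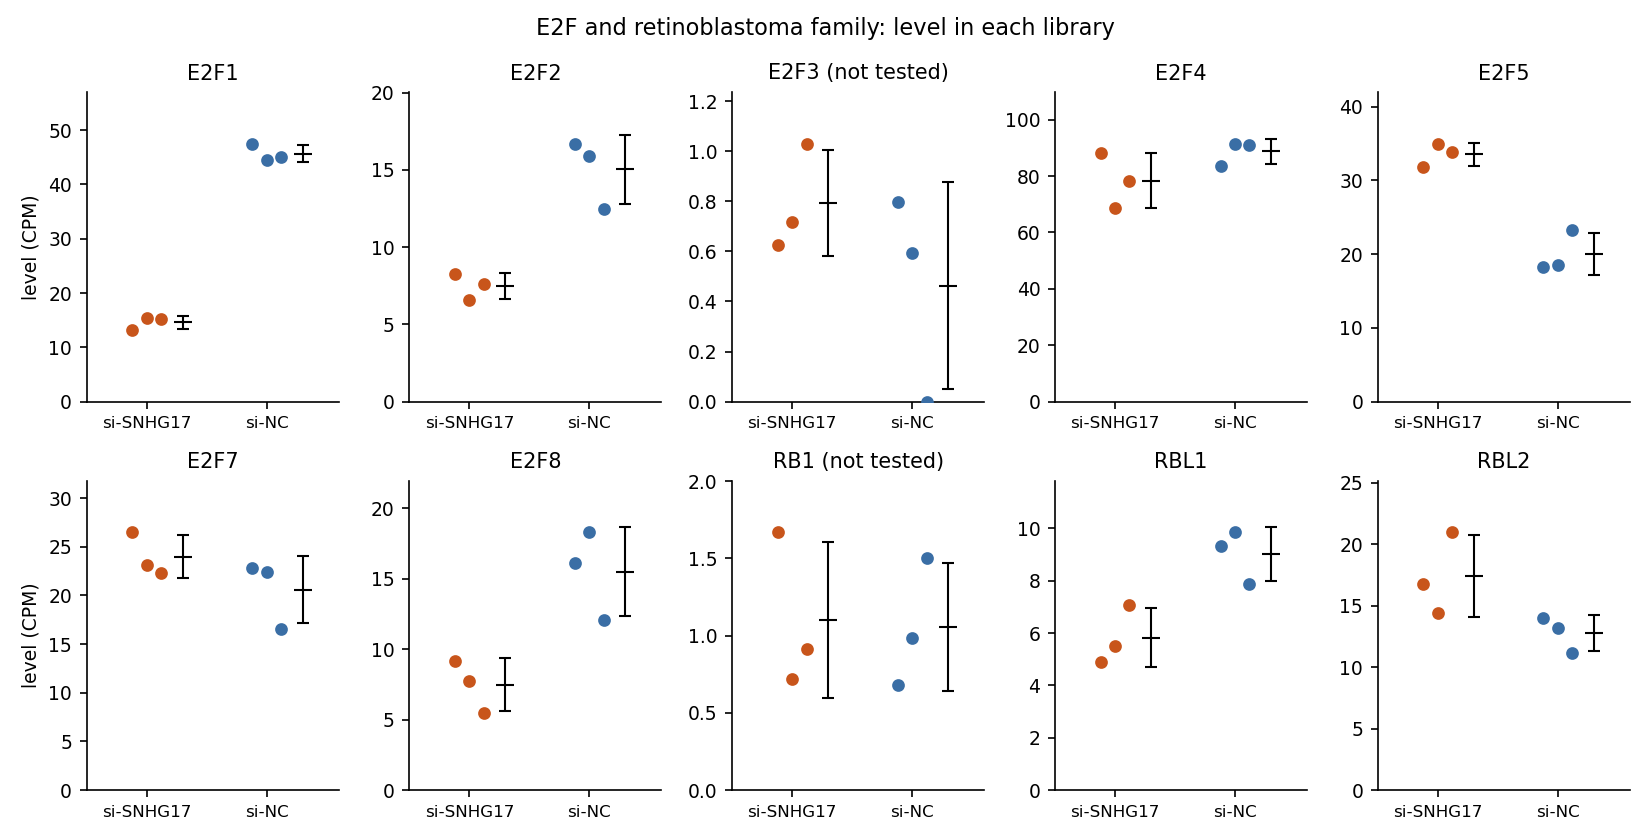
Level of the 10 members in counts per 1000000 (CPM) in each library, with si-SNHG17 (orange) left of si-NC (blue); each point is a library, in the order of replicates 1 to 3, and the bar is the mean with 1 SD (n = 3). The groups separate for E2F1, E2F2, E2F5, E2F8, RBL1 and RBL2, and overlap for E2F4 and E2F7; E2F3 and RB1 stay under 2 CPM in all 6 libraries.

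Of the pocket-dependent repressors, E2F5 rose and E2F4 did not pass the test. E2F4, the main E2F of resting cells, had 88.2, 68.5 and 78.4 CPM in si-SNHG17, against 83.7, 91.5 and 91.0 CPM in si-NC. The gene spans chr16:67192169-67198918 on the plus strand. The groups overlapped, through si-SNHG17 replicate 1. Its log2 fold change was -0.18, with a 95% interval from -0.40 to 0.03 (adjusted p = 0.166 by edgeR), which did not pass; the interval leaves room for a fall of up to 0.40 on the log2 scale and for almost no rise.

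E2F5, a partner of RBL2 in resting cells, was the member that rose most. It had 31.8, 35.0 and 33.8 CPM in si-SNHG17, against 18.2, 18.5 and 23.3 CPM in si-NC, with no overlap. Its log2 fold change was 0.74 (standard error 0.122, adjusted p = 0.000279 by edgeR), a 1.67-fold rise. In GENCODE 29 the exons of E2F5 share 969 bases with those of C8orf59 on the opposite strand, and the use of strand in counting is not given in the sources used here. C8orf59 had 199, 278 and 201 reads in si-SNHG17 and 272, 304 and 319 in si-NC, before library scaling. Whether reads from the shared bases bear on the E2F5 values was not tested.

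Of the atypical repressors, E2F8 fell and E2F7 did not pass the test. E2F8 had 9.18, 7.75 and 5.47 CPM in si-SNHG17, against 16.1, 18.3 and 12.1 CPM in si-NC, and fell by 1.04 on the log2 scale (standard error 0.203, adjusted p = 0.00105 by edgeR), to 48.2% of the control level. All 3 si-SNHG17 libraries lay below all 3 si-NC libraries. E2F7, its closest relative and a known p53 target as well as an E2F target, had 26.5, 23.1 and 22.3 CPM in si-SNHG17, against 22.8, 22.4 and 16.6 CPM in si-NC. Here the groups overlapped, and the log2 fold change of 0.22 did not pass (95% interval -0.08 to 0.52, adjusted p = 0.226 by edgeR). E2F8 spans chr11:19224063-19241620 and E2F7 chr12:77021247-77065580, both on the minus strand. The 95% interval of E2F8, -1.48 to -0.61, lay wholly below that of E2F7; the difference between these genes was not tested in the fit.

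Of the pocket proteins, RBL1 fell, RBL2 rose narrowly past the threshold and RB1 was too low to test. RBL1, which is made mainly in cycling cells, had 4.90, 5.51 and 7.07 CPM in si-SNHG17, against 9.34, 9.86 and 7.87 CPM in si-NC. The groups did not overlap, although si-SNHG17 replicate 3 came close to si-NC replicate 3. RBL1 fell by 0.64 on the log2 scale (standard error 0.191, adjusted p = 0.0169 by edgeR). Leaving out si-SNHG17 replicate 1, si-SNHG17 replicate 2 or si-NC replicate 2 ended the call, with adjusted p of 0.0722, 0.0561 and 0.0692 by the same edgeR test.

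RBL2, the pocket protein known from resting cells, had 16.8, 14.4 and 21.0 CPM in si-SNHG17, against 14.0, 13.2 and 11.2 CPM in si-NC. The groups did not overlap, with a narrow gap between 14.4 and 14.0 CPM. Its log2 fold change of 0.43 (standard error 0.161) passed narrowly, with an adjusted p of 0.0464 by edgeR. The gene spans chr16:53433977-53491649 on the plus strand. It is the least stable call of the family: it held in 7 of 14 alternatives, and the adjusted p was 0.0745 with DESeq2, 0.0598 with limma-voom, 0.072 with a replicate block, and 0.0819, 0.199, 0.0872 and 0.109 by edgeR without si-SNHG17 replicate 1, si-SNHG17 replicate 3, si-NC replicate 2 and si-NC replicate 3. RBL2 shares 610 exon bases with AKTIP on the opposite strand, which had 101, 139 and 100 reads in si-SNHG17 and 149, 169 and 161 in si-NC. On that strand it also shares 721 exon bases with AC007342.6, which is not in the count table. RBL1 shares 211 with AL136172.1, likewise on the opposite strand and not in the count table. Whether these overlaps bear on the values was not tested.

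RB1, the retinoblastoma gene itself, received few reads in the deposited counts. It had 16, 9 and 8 reads in the si-SNHG17 libraries and 6, 10 and 16 in the si-NC libraries, or 33 and 32 reads in all. The groups overlapped fully. Without the filter on low counts edgeR gave a log2 fold change of 0.02 (95% interval -0.88 to 0.93, adjusted p = 0.996), an interval too wide to say whether RB1 changed by less than the other members. How reads were assigned to genes is not given in the sources used here, so the low count of RB1 is a property of these counts, and whether the RNA itself was scarce was not tested. LPAR6, which lies within an RB1 intron on the opposite strand and shares no exon bases with it, had 22, 54 and 30 reads in si-SNHG17 and 24, 29 and 33 in si-NC.

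**Figure D3:**
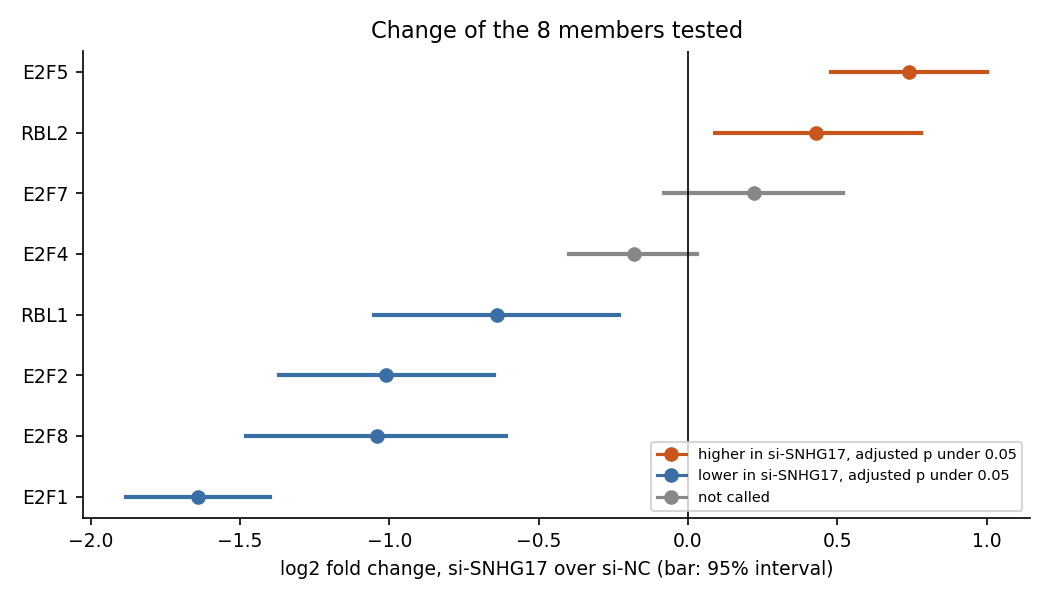
Log2 fold change of the 8 members tested, si-SNHG17 over si-NC, with the 95% interval of the edgeR fit; orange and blue mark members called higher and lower in si-SNHG17, grey those not called. The changes run from -1.64 for E2F1 to 0.74 for E2F5, and the intervals of E2F4 and E2F7 include 0.

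Levels of different members can be compared only per length, so CPM was divided by the length of the exons in GENCODE 29. On this scale E2F4 was the highest member in both groups, at 21.9 ± 2.75 CPM per kilobase in si-SNHG17 and 24.8 ± 1.23 in si-NC. E2F1 came next, at 5.84 ± 0.475 in si-SNHG17 and 18.2 ± 0.636 in si-NC. In si-SNHG17, E2F1 did not stand apart from E2F5 (5.66 ± 0.273 CPM per kilobase) by these lengths, with libraries at 5.29 to 6.16 and 5.36 to 5.90. In si-NC, every E2F1 library was above every E2F5 library, which ran from 3.07 to 3.93. The order in si-SNHG17 rests on the length chosen. The exons of E2F5 cover 5928 bases and its longest transcript 5042, against 2503 for E2F1 either way. By longest transcript every E2F5 library would lie above every E2F1 library in si-SNHG17. E2F7 was at 3.80 ± 0.351 in si-SNHG17 and 3.26 ± 0.551 in si-NC, E2F8 at 1.80 ± 0.452 and 3.74 ± 0.765, and E2F2 at 1.37 ± 0.157 and 2.76 ± 0.405. In si-NC the libraries of E2F8 and E2F5, of E2F5 and E2F7, and of E2F7 and E2F2 overlapped, so these neighbours were not separated. RBL2 was at 2.37 ± 0.455 in si-SNHG17 and 1.75 ± 0.195 in si-NC, and RBL1 at 0.979 ± 0.187 and 1.52 ± 0.174. By these lengths their libraries overlapped in si-NC and stood apart in si-SNHG17. The overlap in si-NC rests on the length chosen, 7320 bases for RBL2 and 5954 for RBL1. By the longest transcripts, 4906 and 5684 bases, RBL2 would stand above RBL1 in si-NC as well. RB1 (0.170 ± 0.0778 and 0.164 ± 0.0639) and E2F3 (0.153 ± 0.0405 and 0.0896 ± 0.0801) had the lowest values in both groups and overlapped each other, with the same limit on what their low counts mean.

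The makeup of the E2F pool was described as the share of each class in the summed level per length of the 7 E2F members. The activators held 16.0%, 19.7% and 19.1% of the sum in the si-SNHG17 libraries, against 39.5%, 36.2% and 36.8% in the si-NC libraries. E2F4 and E2F5 together held 69.2%, 65.8% and 68.8% in si-SNHG17, against 47.1%, 49.9% and 53.2% in si-NC. Neither share overlapped between the groups: the activators differed by -19.3 percentage points and E2F4 with E2F5 by 17.9, each with p = 0.1 in an exact two-sided permutation test over the 6 libraries, the smallest p that 3 against 3 allows. The summed level of E2F4 and E2F5 itself was 27.5 ± 2.48 CPM per kilobase in si-SNHG17 and 28.2 ± 1.53 in si-NC, with overlapping groups (exact permutation p = 0.7), so their larger share came with a smaller total. That of the activators was 7.36 ± 0.386 CPM per kilobase in si-SNHG17 and 21.1 ± 0.981 in si-NC (exact permutation p = 0.1). E2F7 and E2F8 held 13.8% ± 1.48 in si-SNHG17 and 12.4% ± 2.08 in si-NC (± is the SD over 3 libraries each; exact permutation p = 0.5). The sum itself was 40.5 ± 2.65 CPM per kilobase in si-SNHG17 and 56.3 ± 1.14 in si-NC (± is the SD over 3 libraries each; exact permutation p = 0.1). With longest transcripts in place of all exons the activators differed by -16.8 points, and by -15.9 points with no division by length.

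**Figure D4:**
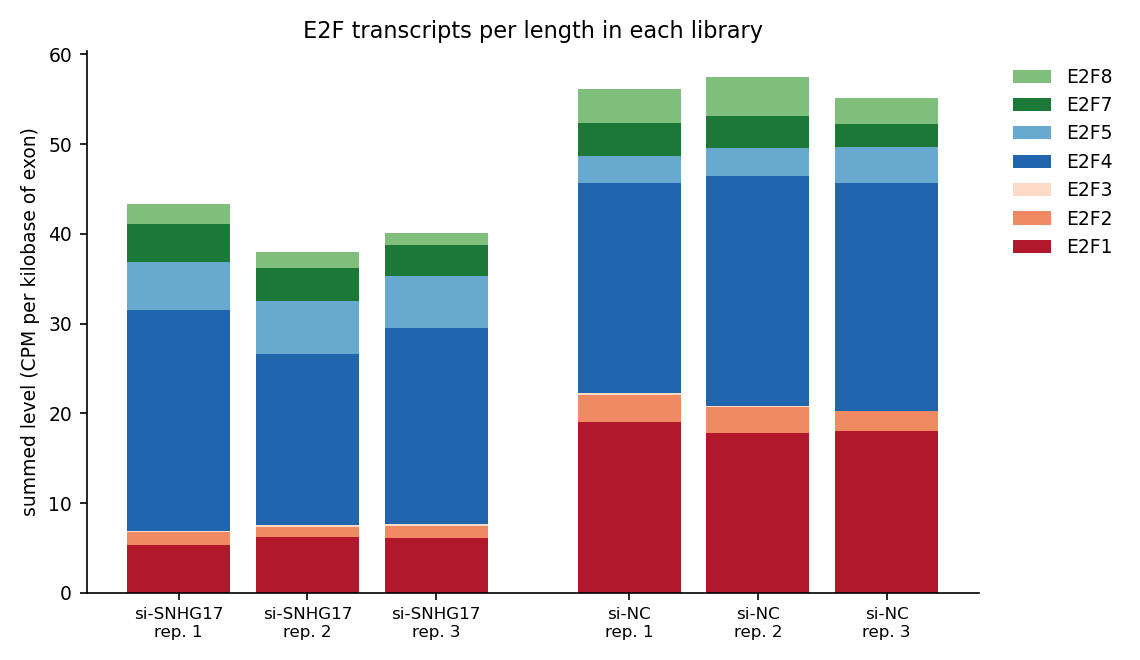
Summed level of the 7 E2F members in each library, in CPM per kilobase of exon, with the si-SNHG17 libraries left of the si-NC libraries; colours are members. The red E2F1 segment is 5.29 to 6.16 in si-SNHG17 and 17.8 to 19.0 in si-NC, while the dark blue E2F4 segment is 19.1 to 24.6 and 23.4 to 25.6; E2F3 is too low to be seen.

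Among the pocket proteins the same description gave RBL2 67.2% ± 1.57 of the summed level per length in si-SNHG17 and 51.0% ± 2.03 in si-NC, and RBL1 27.8% ± 3.25 and 44.1% ± 1.56 (SD over 3 libraries each; exact permutation p = 0.1 for either gene). RB1 held 4.91% ± 2.38 in si-SNHG17 and 4.90% ± 2.36 in si-NC. These pocket protein shares were computed with the length of all exons only, and their sizes rest on that choice. In bulk RNA, fewer cells in S phase and less of each transcript per cell cannot be told apart.

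The genes around the family were counted in 8 lists. Of 3 dimerization partner and E2F6 genes tested, 2 fell (median log2 fold change -0.75), or 66.7% called, against 39.1% of all genes tested. TFDP1, which encodes the DP subunit that lets E2F1 to E2F6 bind DNA, fell by 0.91 on the log2 scale (42.8 ± 5.15 CPM in si-SNHG17 and 80.1 ± 6.67 CPM in si-NC, adjusted p = 1.68e-05 by edgeR). TFDP2, the second DP gene, did not pass (log2 fold change -0.09, standard error 0.107). E2F6, a repressor that binds no pocket protein and is not a member here, fell to 9.59 ± 1.54 CPM in si-SNHG17, against 16.1 ± 0.605 CPM in si-NC (log2 fold change -0.75, adjusted p = 0.00133 by edgeR). TFDP3 had 1 read in all.

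MuvB subunits, which join RBL2 and E2F4 in the DREAM repressor and B-MYB and FOXM1 in its activating forms, were counted next. Of 8 genes of this list tested, 2 fell and 1 rose, with a median log2 fold change of -0.07; the 37.5% called was near the 39.1% of all genes tested. Those that fell were the activators FOXM1 (-1.04) and MYBL2 (-0.81), both known E2F or DREAM targets. LIN37, a MuvB subunit needed for DREAM repression, rose by 0.39 with an adjusted p of 0.0468 by edgeR; this call was lost with DESeq2 (adjusted p = 0.0802) and without si-SNHG17 replicate 1 or 3 or si-NC replicate 1 or 2 (adjusted p from 0.0877 to 0.217). LIN54, the DNA-binding subunit, did not pass (-0.35, standard error 0.167).

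Of 9 cyclins, kinases and activators that lead to phosphorylation of pocket proteins, 4 fell and 1 rose (median log2 fold change -0.35), or 55.6% called, against 39.1% of all genes tested. The cyclins CCND3 (-0.86) and CCNA2 (-0.65) and the kinases CDK2 (-0.58) and CDK4 (-0.35) fell. CCNE2, cyclin E2, had the lowest log2 fold change of the list (-0.91) at 1.17 ± 0.323 CPM in si-SNHG17 and 2.26 ± 0.759 CPM in si-NC, but did not pass (adjusted p = 0.0655 by edgeR). CCNE1, cyclin E1 and a classic E2F target, rose by 0.52 (47.5 ± 1.80 CPM in si-SNHG17 and 33.1 ± 4.31 CPM in si-NC, adjusted p = 0.00192 by edgeR), with no overlap of the groups. CCND1, singled out with CCNE2 after their values were seen, was at 173.0 CPM in both groups.

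Of 5 CDK inhibitors tested, 1 rose and 1 fell, or 40.0% called, near the 39.1% of all genes tested. CDKN1A, the p53-induced inhibitor p21, rose to 785.0 ± 73.7 CPM in si-SNHG17, against 503.0 ± 66.7 CPM in si-NC (log2 fold change 0.64, adjusted p = 0.000156 by edgeR). CDKN2C, the CDK4 and CDK6 inhibitor p18 and a known E2F target, fell by 0.66. CDKN1C (0.51, standard error 0.258) and CDKN2D (-0.33, standard error 0.185) did not pass. CDKN2A and CDKN2B had no reads in any library; A549 is known to lack this locus.

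Of 13 corepressors that pocket proteins bring to promoters, 3 fell and 2 rose, with a median log2 fold change of 0.02. That is 38.5% called, near the 39.1% of all genes tested, so the count is no result about the list. HDAC1, a histone deacetylase bound by pocket proteins, fell by 1.06 (73.7 ± 4.82 CPM in si-SNHG17 and 153.0 ± 9.03 CPM in si-NC), and the histone chaperone RBBP7 (-0.56) and the H3K9 methyltransferase SUV39H1 (-0.67) fell too. SIN3B, a scaffold linked to repression of E2F targets in resting cells, rose by 1.11 (82.6 ± 4.32 CPM in si-SNHG17 and 38.2 ± 0.429 CPM in si-NC, adjusted p = 4.78e-07 by edgeR). KDM5B, a histone demethylase, was the other gene that rose (0.54).

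Of 7 ubiquitin ligase parts that act on E2F proteins or their regulators, 4 fell and 1 rose (median log2 fold change -0.47), or 71.4% called, against 39.1% of all genes tested. SKP2 (-1.12), which targets p27 and is itself an E2F target, CCNF (-1.08), cyclin F, and the adaptor DDB1 (-0.48) fell. MDM2, the p53 ligase, rose by 0.96.

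**Figure D5:**
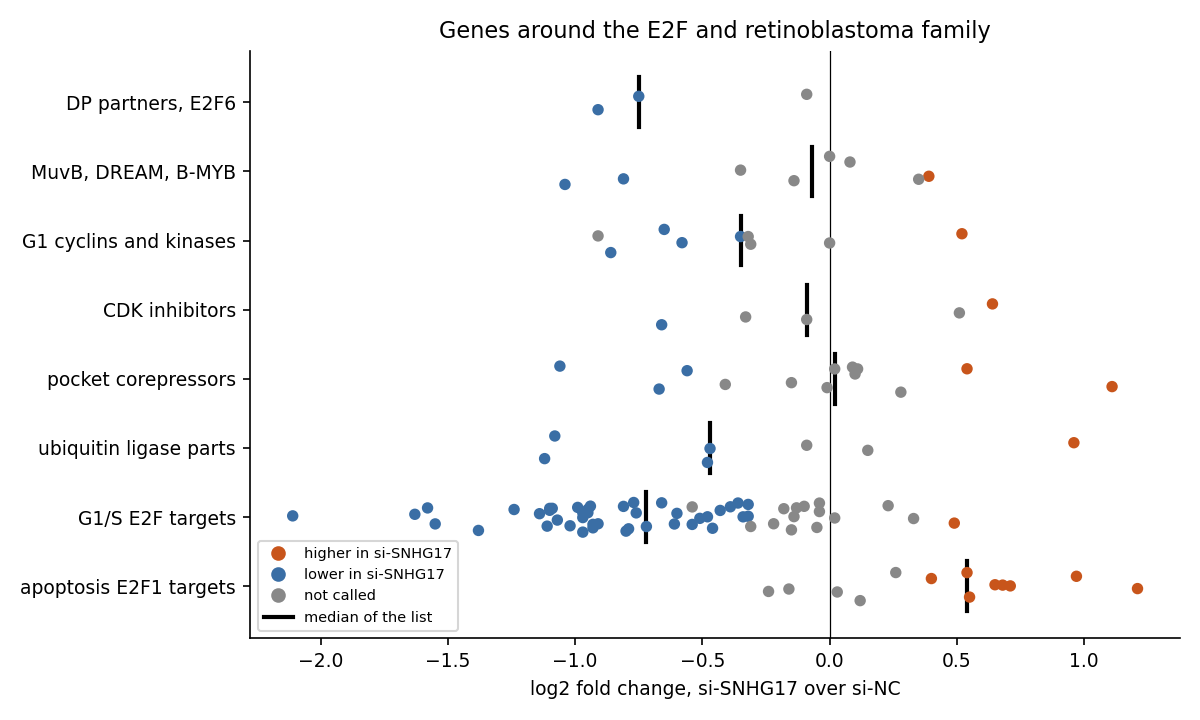
Log2 fold change, si-SNHG17 over si-NC, of every gene tested in the 8 lists; orange and blue mark genes called higher and lower in si-SNHG17, grey those not called, and the black bar is the median of the list. The G1/S targets sit mostly below 0 (median -0.72) and the apoptosis targets mostly above it (median 0.54).

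The 2 lists of known E2F targets lay on opposite sides of 0. Of 57 G1/S genes tested, 42 fell and 1 rose, with a median log2 fold change of -0.72 and a range from -2.11 to 0.49. Among all genes tested 19.6% fell. E2F targets placed among the members or in other lists are outside this count, such as CCNE1, which rose, and SKP2 and CDKN2C, which fell. GINS1, a subunit of the replicative helicase, fell to 10.4 ± 1.23 CPM in si-SNHG17, against 45.0 ± 1.98 CPM in si-NC. The helicase subunit MCM6 (-1.24), the ribonucleotide reductase subunit RRM2 (-1.38) and the DNA polymerase subunit POLE (-1.14) followed in p. CDT1, a licensing factor that loads the helicase, was the gene of this list that rose (0.49). Part of these genes were already known to fall in these libraries when the list was drawn up, so their count is no independent support for the fall of E2F1. Of the 49 G1/S genes with a RefSeq window, 28 held an E2F word, or 57.1%; of these 28, 21 fell, and of the 21 without a word, 14 fell.

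Of 13 apoptosis genes known as E2F1 targets, 8 rose and 0 fell by edgeR, with a median log2 fold change of 0.54; 19.6% of all genes tested rose. None was lower at an unadjusted p under 0.05 either, and 0 fell with DESeq2 or limma-voom; 1 fell without si-SNHG17 replicate 2. The BH3-only genes BBC3 (1.21, 95.7 ± 8.84 CPM in si-SNHG17 and 41.5 ± 9.06 CPM in si-NC) and PMAIP1 (0.97, 30.9 ± 1.85 CPM in si-SNHG17 and 15.8 ± 0.197 CPM in si-NC) rose, as did the caspase gene CASP8 (0.54). Both BH3-only genes are also p53 targets. TP73, a classic E2F1 target, had no reads in any library, and HRK had too few to be tested.

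Across the transcriptome, genes with an E2F word in a RefSeq window were counted alongside. Of 644 such genes tested, 163 fell (25.3%) and 107 rose (16.6%); of 9166 genes with a window and no word, 1868 fell (20.4%) and 2065 rose (22.5%). Of the 32 with 2 or more words, among them E2F1 and RBL1, 13 fell (40.6%) and 5 rose (15.6%). These are counts only, with no test.

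The genes whose profile over the 6 libraries was closest to that of E2F1 were sought among 11346 others with a mean of at least 5 CPM, by the root mean square difference of centred log2(CPM + 0.5). They were MEIS2 (0.0569), APMAP (0.0574), AGR2 (0.0810), KIAA0391 (0.0834) and GSS (0.0909), whose log2 fold changes ran from -1.54 to -1.70. Within 0.2 of E2F1 on this measure lay 87 genes. None of the 5 closest is on the lists above.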

How the data were processed

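RNA was isolated with Trizol, per the labels' protocols, and made into Ion Total RNA-Seq libraries, read single-end on an Ion Proton. The build is GRCh38, per the submitters' processing notes. The aligner, counter and annotation, and whether strand was used, were not given in the sources used here. The authors deposited raw read counts per gene, not normalized. Sample titles gave the groups and the columns. Counts were fitted with edgeR 4.0.16 in R 4.3.3 (filterByExpr, TMM factors 0.975 to 1.02, glmQLFit, glmQLFTest, group as the only term), with p-values adjusted by the Benjamini-Hochberg method over all 15614 genes tested at a threshold of 0.05. Standard errors were derived from the F statistic. The fit was checked on simulated counts, with far fewer changed genes than were called here and the same spread setting for all genes. That check does not measure error rates in these data. A count of 0 allows up to 3 counts (0.240 to 0.342 CPM), for counting error only.

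Exon lengths and gene positions came from GENCODE 29, used in place of RefSeq exons, which were not used here; promoters came from RefSeq. Promoter windows starting over 2000 bases from the GENCODE gene start were left out. Class shares were tested by exact permutation in Python 3.11.15.

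The members and lists were chosen with earlier results of these data known. Named genes were the 10 members, SNHG17, up to 4 genes of each list with the smallest p, and the 5 genes closest to E2F1; CDK4, CCND1, CCNE2, KDM5B, CDT1, TP73, HRK and others outside this rule were named after their values were seen. Some genes of the lists are not reported here by name. Alternatives were DESeq2 size factors, upper quartile, library totals, DESeq2 1.42.0, limma-voom (limma 3.58.1), no filter, a mean CPM of at least 1, a replicate block, other gene lengths, and leaving out each library.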

Additional observations from a re-analysis of the deposited data

How the results depend on the processing

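Of the 8 members tested, E2F1 (-1.68 to -1.57), E2F2 (-1.13 to -0.91), E2F8 (-1.20 to -0.87) and E2F5 (0.68 to 0.87) were called in each of 14 alternatives. E2F4 (-0.27 to -0.09) and E2F7 (0.08 to 0.30) were called in none, with adjusted p of at least 0.0711 and 0.163. RBL1 (-0.78 to -0.53) was called in 11 and RBL2 (0.29 to 0.56) in 7; the cause of these losses was not tested, beyond the fewer samples where a library was left out. No member changed sign. Members called numbered 4 without si-SNHG17 replicate 1 or si-NC replicate 2, 5 without si-SNHG17 replicate 2, si-SNHG17 replicate 3 or si-NC replicate 3, and 5 with DESeq2, limma-voom or the replicate block. SNHG17 ran from -2.37 to -2.04. Over the alternatives, 69 to 76 genes of the 8 lists were called (73 in the report), and 39 to 42 of the G1/S genes fell. Of the values of 44 named genes, 600 kept their side of the threshold, 15 lost it and 1 (CDKN1C without si-SNHG17 replicate 1, adjusted p = 0.0177 by edgeR) gained it.

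The share of the activators in the E2F sum differed by -16.8 points with longest transcripts and -15.9 points without length, by construction of the length term, and by -20.0 to -18.1 points with a library left out. The replicate block gave 5579 genes. Like-numbered libraries had correlations of deviations of 0.061, -0.11 and -0.091, and each library correlated best with one of another number, so the numbers were not taken to pair the libraries. With library totals only, 55.5% of called genes were higher, and the median of all genes shifted to 0.045. E2F3 and RB1 had 0 to 16 reads per library, which limits the precision of their values; the cause of the low counts was not tested.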

Other observations

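E2F1 and RBL1 lie on chromosome 20 (GENCODE 29, GRCh38), as SNHG17 does. E2F1 runs from 33675683 to 33686404 and RBL1 from 36996349 to 37095995, and their ends lie 4734 and 1325 kilobases from SNHG17. Both fell in si-SNHG17. Of 56 other genes tested between E2F1 and SNHG17, 16 fell (28.6%) and 7 rose (12.5%), with a median log2 fold change of -0.06; over all genes tested 19.6% fell and 19.6% rose. This stretch was chosen after the values of E2F1 and RBL1 were seen, and whether position bears on their levels was not tested.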
